A study of Mus musculus with 23 samples.

Results

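The genes described here include transporters that carry cholesterol and phospholipid out of macrophages and apolipoproteins that receive it. Other members act elsewhere in lipid handling. The members belong to the set usually listed as targets of the liver X receptors (LXRs). The 10 members were taken by name and are Abca1, Abcg1, Apoe, Apoc1, Apoc2, Mylip, Lpcat3, Srebf1, Pltp and Ch25h. All 10 have a row in both deposited tables, among 22524 genes in the table of the vavCre experiment and 25700 genes in the table of the Spic and CreERT2 experiments. A filter on low values, which asked for 1 or more in 2 or more libraries, kept 10 members of 15130 genes tested in the first table and 9 of 16650 in the second, where Ch25h dropped out.

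The series profiled RNA of macrophages sorted from C57BL/6 mice, with 1000 cells in each of 23 libraries. Its design text concerns the few cells still found that resemble red pulp macrophages or erythroblastic island macrophages and lack Pparg, so the Cre libraries hold remaining cells and not the usual population. The first table holds pups at day 7. Its groups are spleen red pulp macrophages of genotype WT (RPM_d7_WT, n = 3) and vavCre (RPM_d7_vavCre, n = 3), and bone marrow macrophages of genotype WT (BMM_d7_WT, n = 3) and vavCre (BMM_d7_vavCre, n = 3). The second holds spleen red pulp macrophages only. Its groups are day-7 pups of genotype Spic_WT (n = 3) and Spic_KO (n = 2), and adults of genotype WT (RPM_TAM_WT, n = 2) and TAM_CreERT2 (RPM_TAM_CreERT2, n = 4). The Vav promoter drives Cre throughout blood-forming cells, so vavCre is not restricted to macrophages. The promoter that drives CreERT2, the floxed allele and the meaning of TAM are not given in the sources used here, and TAM is read as tamoxifen. No label says that replicates are separate animals, so p-values measure only the spread between these libraries, which may be technical.

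LXRs are nuclear receptors that bind oxysterols and act with retinoid X receptors (RXRs) on direct repeats of a hexamer. In macrophages they raise transporters that export cholesterol when the cell has taken up a surplus, for instance from engulfed red cells, which are rich in membrane cholesterol. PPARγ, the product of Pparg, is a fatty acid receptor that also pairs with RXRs and is known to act upstream of LXRα in macrophages. Abca1 hands cholesterol and phospholipid to lipid-poor apolipoproteins, Abcg1 passes cholesterol on to formed high-density particles, and Apoe is a secreted acceptor and receptor ligand.

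The promoter sequences are shown because LXRs act through DNA sites. The members with the closest pair of sites also did not move alike in the gene sums below. RefSeq windows (GRCm38.p6, 250 bases before to 50 bases after a start) were matched for 8 of the 10 members, in 12 windows; Abcg1 and Apoc1 had none. A direct repeat of AGGTCA was searched on both strands with 4 bases between the hexamers (the LXR type) or 1 base (the PPAR type), allowing 3 mismatches over the 12 fixed bases. Capitals mark every such match. The windows shown are those of Abca1 (chr4:53159846-53160145, minus strand), of the last of 3 Srebf1 starts (chr11:60210422-60210721, minus strand), of the first of 3 Apoe starts (chr7:19699139-19699438, minus strand) and of Apoc2 (chr7:19677892-19678191, minus strand).
Abca1: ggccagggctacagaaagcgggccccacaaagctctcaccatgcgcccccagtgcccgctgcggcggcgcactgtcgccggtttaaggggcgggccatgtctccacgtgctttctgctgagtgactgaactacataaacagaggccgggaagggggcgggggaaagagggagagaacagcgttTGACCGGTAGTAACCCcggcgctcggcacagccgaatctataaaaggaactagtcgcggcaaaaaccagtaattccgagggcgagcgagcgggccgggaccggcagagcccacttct
Srebf1: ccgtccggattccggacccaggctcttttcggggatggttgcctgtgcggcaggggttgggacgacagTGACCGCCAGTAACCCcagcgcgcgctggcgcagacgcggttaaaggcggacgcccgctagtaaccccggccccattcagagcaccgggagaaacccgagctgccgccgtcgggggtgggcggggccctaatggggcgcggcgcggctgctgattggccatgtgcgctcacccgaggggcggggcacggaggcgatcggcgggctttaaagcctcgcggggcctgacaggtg
Apoe: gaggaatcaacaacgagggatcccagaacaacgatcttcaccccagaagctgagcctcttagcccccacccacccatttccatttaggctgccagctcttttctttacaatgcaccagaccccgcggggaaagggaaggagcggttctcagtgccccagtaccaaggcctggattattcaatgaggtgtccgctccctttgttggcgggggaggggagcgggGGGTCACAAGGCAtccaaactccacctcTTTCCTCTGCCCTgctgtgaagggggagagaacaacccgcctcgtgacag
Apoc2: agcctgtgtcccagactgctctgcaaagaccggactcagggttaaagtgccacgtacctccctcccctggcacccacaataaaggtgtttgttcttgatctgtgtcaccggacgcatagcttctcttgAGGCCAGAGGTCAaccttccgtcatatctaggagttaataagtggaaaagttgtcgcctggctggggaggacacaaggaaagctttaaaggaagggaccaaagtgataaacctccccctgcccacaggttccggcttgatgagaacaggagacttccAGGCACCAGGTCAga

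Abca1 and Srebf1 were the members whose windows held an LXR-type match, on the opposite strand in both, at -67 to -52 of the Abca1 start and -182 to -167 of the Srebf1 start. Each match had 3 mismatches, and 21.9% of all 32851 windows held a match as close. Read on the repeat's own strand, the matches shared 14 of 16 bases, with the pattern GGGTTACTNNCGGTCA. They differed by A9G and C10G (Abca1 base first, positions counted from 1 at the 5′ end of that strand), both between the hexamers. That pattern, read from these genes themselves, occurred in 3 of the 32851 windows, those of 3 genes. The closest PPAR-type match among the members was the one at -122 to -110 of Apoc2, with 1 mismatch, and 0.554% of all windows held one as close. The pair of matches in the Apoe window had 3 mismatches each, which 24.6% of windows reached. Abca1 also held the sterol-type E-box CACGTG at -147 to -142, present in 7.15% of windows. These matches are letters in a window; no binding was measured.

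Recovered reads ranged from 4.26 to 21.7 M per library in the first table and from 0.693 to 6.29 M in the second, where replicate 2 of RPM_TAM_CreERT2 was the shallowest. Values are normalised read counts and compare within a table only. Pparg summed over the gene was not lower in the libraries labelled vavCre: the wild-type spleen libraries read 1691, 1550 and 2124 and the vavCre spleen libraries 4002, 2496 and 2613. A sum over a gene cannot show a deleted exon, so it checks no Cre label. Spic read 3110, 1993 and 2203 in Spic_WT and 931.1 and 1236 in Spic_KO, and Pparg there read 330.4, 210.6 and 221.4 against 26.03 and 21.73. All 9 macrophage markers were above 0 in each of the 8 groups. With vavCre 2 of them rose and none fell in spleen, and 3 rose and 2 fell in marrow. Their sum went from 1.56 to 1.78% of the signal to 2.12 to 2.39% in spleen. In marrow it went from 1.32 to 1.74% to 1.82 to 1.97%. Of 10 erythroid markers, 8 fell in spleen and 10 in marrow with vavCre, and their sum went from 2.25 to 3.44% of the signal to 1.12 to 1.58% in spleen and from 2.46 to 3.65% to 0.922 to 1.37% in marrow. Of 7 red pulp macrophage markers, 5 fell and 1 rose in spleen and 4 fell and 1 rose in marrow. Over all genes 2.54% fell and 2.98% rose in spleen with vavCre, and 4.4% fell and 3.41% rose in marrow. The sum of 5 megakaryocyte markers was higher with vavCre, at 0.00689 to 0.00987% against 0.0879 to 0.140% in spleen and 0.0264 to 0.0448% against 0.165 to 0.186% in marrow. Pf4, which encodes a platelet chemokine, was the marker of that list that rose, by 4.40 and 2.34 on the log2 scale (limma adjusted p = 3.4e-12 and 5.5e-08). The platelet glycoprotein gene Gp9 fell in marrow (-4.18, limma adjusted p = 0.038), the other 3 were called in neither tissue, and the median of the 5 was -0.83 in spleen and 0.33 in marrow. Of the markers of hepatocytes, a main source of apolipoproteins, Ttr and Serpina1a were at 0 in all 23 libraries and Alb was at 0 throughout 5 of the 8 groups. Trf made up most of the hepatocyte list, which took 0.203 to 0.314% of the signal in spleen of wild type against 0.0973 to 0.121% in vavCre, and in marrow 0.138 to 0.174% against 0.0383 to 0.0516%. The part of the macrophage, erythroid, red pulp and megakaryocyte markers in the results below was not tested.

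In day-7 macrophages labelled vavCre, the transporter Abca1 and the apolipoprotein Apoe rose in both tissues, while Apoc1, the gene next to Apoe, fell in both. The transfer protein gene Pltp rose in spleen, and Abcg1, the partner transporter, fell in marrow. In spleen 3 of the 10 members rose and 1 fell by limma adjusted p, beside 2.98% and 2.54% of all genes tested. In marrow 2 rose and 2 fell, beside 3.41% and 4.4%. The median log2 change of the members was 0.08 in spleen and 0.00 in marrow, beside -0.02 and -0.04 over all genes. In bulk samples, fewer cells of a type and less RNA per cell cannot be told apart.

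**Figure D1:**
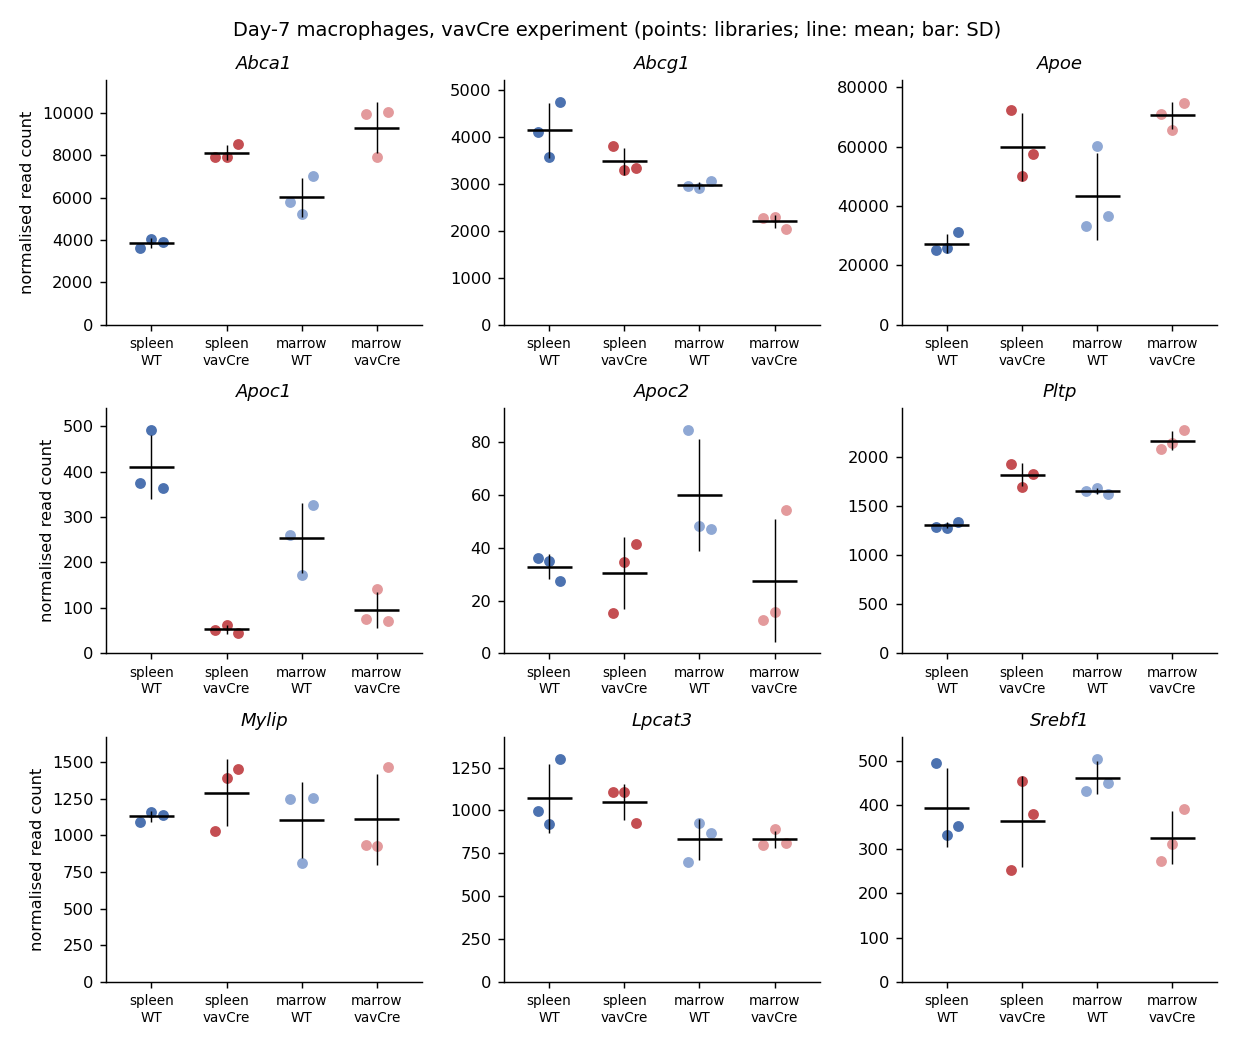
Normalised read count (linear axis from 0) of 9 members in each library of the vavCre experiment; points are libraries, horizontal lines group means and vertical bars SDs, n = 3 per group. In both tissues Abca1 and Apoe are higher and Apoc1 is lower with vavCre, while Mylip, Lpcat3 and Srebf1 overlap in spleen.

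Abca1 (chromosome 4, 53030787 to 53159895, minus strand, GRCm38), the exporter to lipid-poor particles, read 3622, 4033 and 3927 in wild-type spleen and 7913, 7909 and 8523 in the libraries labelled vavCre. Every vavCre library lay above every wild-type library. The log2 change was 1.07 ± 0.12 (SE; limma adjusted p = 1.1e-05), a fold of 2.10. In marrow Abca1 read 5773, 5227 and 7045 in wild type and 9943, 7900 and 10060 in vavCre, again without overlap, for a log2 change of 0.63 ± 0.12 (limma adjusted p = 0.0030). Both calls held under all alternatives run, the omission of each compared library included. The order of means was marrow vavCre, spleen vavCre, marrow wild type and spleen wild type, and the libraries of the 2 vavCre groups overlapped while the other neighbours did not.

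Abcg1 (chromosome 17, 31057675 to 31117988, plus strand) was ordered otherwise, highest in wild-type spleen at 4110, 3572 and 4743 and lowest in vavCre marrow at 2269, 2293 and 2041. In spleen the vavCre libraries read 3802, 3296 and 3337 and overlapped wild type, with a log2 change of -0.25 ± 0.13 (limma adjusted p = 0.38). In wild-type marrow it read 2946, 2906 and 3051, above all vavCre libraries. The marrow change of -0.43 ± 0.13 had a limma adjusted p of 0.045, which became 0.0655 to 0.138 when any single compared library was left out and 0.0655 with the replicate number as a block. It passed in 4 of the 9 other fits. The ratio of Abca1 to Abcg1 values in a library was 0.828 to 1.13 in wild-type spleen and 2.08 to 2.55 in vavCre spleen, 1.80 to 2.31 in wild-type marrow and 3.45 to 4.93 in vavCre marrow. The ratio was 2.49 times as high with vavCre in spleen and 2.09 times in marrow. The two-sided exact permutation p was 0.1 in each, the smallest that 3 against 3 libraries allow. In marrow each gene had separated the genotypes, in opposite directions. In spleen any vavCre Abca1 value over any vavCre Abcg1 value exceeded every such ratio of wild-type values. Both outcomes were therefore fixed and add no evidence. In the second table the ratio was 1.20 times as high with Spic_KO (exact permutation p = 0.8). With CreERT2 in adults it was 1.61 times as high (exact permutation p = 0.267, smallest possible 0.0667).

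Among the apolipoproteins Apoe stood far above the rest. Per kb of exon it averaged 12803 in wild-type spleen, rank 30 of 22214 genes with an annotated length, against 551 for Apoc1 and 40.4 for Apoc2. Apoe (chromosome 7, 19696109 to 19699188, minus strand) read 25150, 25820 and 31150 in wild-type spleen and 72460, 49990 and 57610 in vavCre, and the groups did not overlap. The log2 change was 1.12 ± 0.19 (limma adjusted p = 0.0023) and held under all alternatives. In marrow it read 33210, 60140 and 36580 in wild type and 71050, 65760 and 74780 in vavCre. The wild-type replicate 2 lay near the vavCre range. The log2 change there was 0.75 ± 0.19 (limma adjusted p = 0.026). The marrow Apoe call was lost without wild-type replicate 1 (0.053) or 3 (0.065), without vavCre replicate 3 (0.071), or with the replicate number as a block (0.052).

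Apoc1 (chromosome 7, 19689481 to 19692660, minus strand), which encodes a small apolipoprotein that inhibits lipoprotein lipase and receptor uptake, went the other way. It read 375.3, 490.3 and 364.1 in wild-type spleen and 50.32, 62.74 and 44.43 in the vavCre libraries, from 56 to 82 reads each. Every vavCre value was below every wild-type value, and the log2 change was -2.94 ± 0.40 (limma adjusted p = 8.1e-05), a fall to 0.130 of the wild-type level that held under all alternatives. In marrow it read 259.4, 172.6 and 326.1 against 75.36, 140.6 and 70.16, with a log2 change of -1.42 ± 0.40 (limma adjusted p = 0.035). The marrow groups did not overlap either. The marrow Apoc1 call did not survive in a fit on the compared groups alone (0.14) and without wild-type replicate 1 (0.094) or 3 (0.14) or vavCre replicate 1 (0.088) or 3 (0.099).

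Apoc2 (chromosome 7, 19671579 to 19677941, minus strand), the activator of lipoprotein lipase, was low. It read 36.26, 34.9 and 27.38 in wild-type spleen and 15.34, 34.76 and 41.25 in vavCre. In marrow it read 84.46, 48.18 and 47.03 against 12.56, 15.76 and 54.32. The groups overlapped in both tissues and neither change passed the test (-0.21 ± 0.75, limma adjusted p = 0.96; -1.34 ± 0.75, 0.34).

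Apoe, Apoc1, Apoc4 and Apoc2 lie in one cluster on the same strand, with 3.449 kb between Apoc1 and Apoe. The ratio of Apoe to Apoc1 in a library was 67.0, 52.7 and 85.6 in wild-type spleen and 1440, 797 and 1297 in vavCre spleen, 17.0 times as high. In marrow it went from 128, 348 and 112 to 943, 468 and 1066, 4.55 times as high. Neither tissue overlapped between genotypes, with an exact permutation p of 0.1 in each, the smallest possible (two-sided). Apoe and Apoc1 each separated the genotypes, in opposite directions, so this outcome was fixed and adds no evidence. With Spic_KO the ratio was 1.52 times as high, and the libraries overlapped (exact permutation p = 0.4). Apoc4 was listed at 0 in 8 of the 12 libraries and at most at 7.008 in the others. By limma none of the 6 tested neighbours beyond the cluster was called in either tissue. Spleen had 1 at an unadjusted p under 0.05 and marrow 0, beside 16.1% and 20.6% of all genes. Tomm40, a mitochondrial import gene 2.125 kb on the far side of Apoe, averaged 309 ± 92.0 in wild-type and 262 ± 60.3 in vavCre spleen (SD, n = 3 each), and Clptm1, 31.076 kb on the Apoc2 side, 874 ± 64.4 and 1159 ± 160. Their log2 changes were -0.22 ± 0.32 (limma adjusted p = 0.85) and 0.40 ± 0.18 (0.26).

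**Figure D2:**
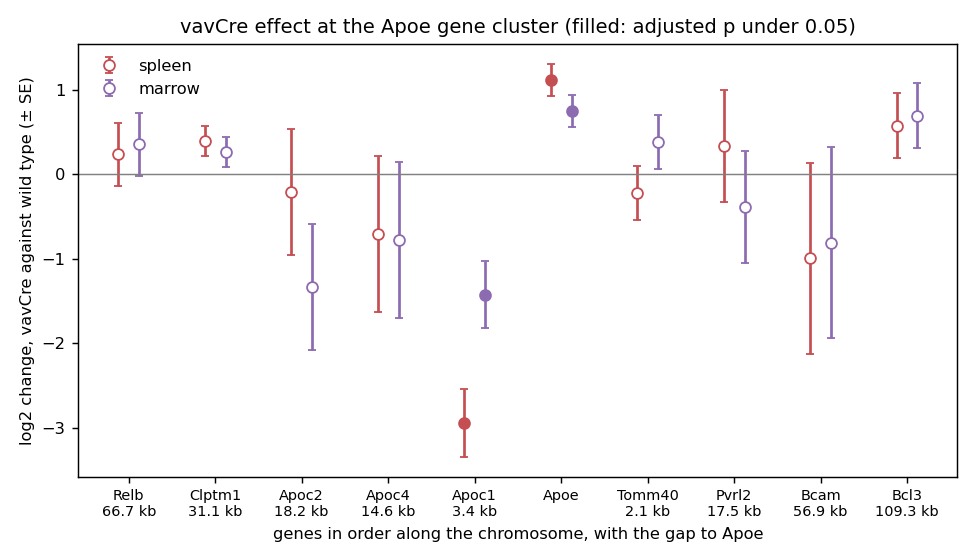
Log2 change with vavCre (y axis, ± SE from the fit on 12 libraries) of tested genes in their order around Apoe, with the gap to Apoe in kb under each name; red is spleen, purple marrow, and filled points passed an adjusted p of 0.05. Apoe lies above 0 and Apoc1 below 0 in both tissues, and no flanking gene is filled.

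Pltp (chromosome 2, 164839518 to 164857711, minus strand) encodes phospholipid transfer protein, which moves phospholipid between lipoprotein particles and remodels high-density particles. It read 1290, 1282 and 1339 in wild-type spleen and 1932, 1700 and 1829 in vavCre, without overlap. The log2 change was 0.48 ± 0.13 (limma adjusted p = 0.041), lost with any single compared library left out (0.072 to 0.14) and with the replicate number as a block (0.069). In marrow it read 1655, 1687 and 1622 against 2083, 2147 and 2272, also without overlap, for 0.39 ± 0.13 (0.087 by limma, 0.020 by DESeq2). The libraries of neighbouring groups did not overlap in the order marrow vavCre, spleen vavCre, marrow wild type and spleen wild type, the order of means that Abca1 and Apoe had.

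Mylip, Lpcat3 and Srebf1 were not called in either tissue. Mylip (chromosome 13, 45389742 to 45412022, plus strand) encodes the ligase that sends the LDL receptor to degradation, and read 1090 to 1163 in wild-type spleen, 1030 to 1456 with vavCre, and in marrow 809.5 to 1257 and 928.4 to 1467. Its log2 changes were 0.18 ± 0.22 (limma adjusted p = 0.80) and 0.00 ± 0.22 (1.0). Lpcat3 (chromosome 6, 124663027 to 124704418, plus strand), which adds polyunsaturated chains to phospholipids, read 918.2 to 1300 and 926.6 to 1108 in spleen and 697.8 to 926.9 and 797.5 to 889.6 in marrow. Its changes were -0.02 ± 0.19 (0.99) and 0.01 ± 0.19 (1.0). Srebf1 (chromosome 11, 60199089 to 60222581, minus strand), the transcription factor gene of fatty acid synthesis, read 331.6 to 496.1 and 253.5 to 455.3 in spleen, with overlap. In marrow it read 432.4, 504.6 and 449.4 in wild type and 274.2, 311.5 and 391.5 in vavCre, without overlap, but the change of -0.52 ± 0.28 did not pass (limma adjusted p = 0.31). Abca1 and Srebf1, which shared the LXR-type match shown above, differed in call: Abca1 rose in both tissues and Srebf1 rose in neither. That match lies at the last of 3 Srebf1 starts, and a sum over the gene cannot show the transcripts of that start. Ch25h, which makes 25-hydroxycholesterol, was listed at 0 in 9 of 12 libraries, with 0.9126 in one wild-type spleen library, 22.89 (27 reads) in one vavCre spleen library and 1.212 in one vavCre marrow library.

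**Figure D3:**
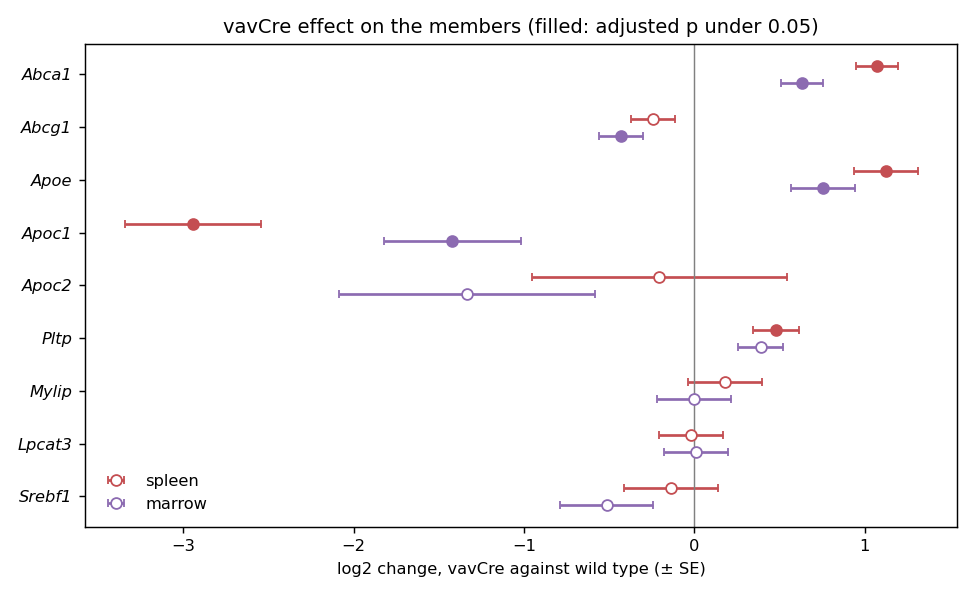
Log2 change with vavCre (x axis, ± SE from the fit on 12 libraries) of 9 members; red is spleen, purple marrow, and filled points passed an adjusted p of 0.05. Abca1, Apoe and Pltp lie to the right of 0 and Apoc1 and Abcg1 to the left in both tissues.

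The tissues' responses were also tested against each other. None of the 10 members was called for a difference of the vavCre effects, beside 0.119% of all genes, and edgeR and DESeq2 called none either. At an unadjusted p under 0.05 there were 2 of 10, beside 6.18% of all genes: Apoc1, with a difference of -1.52 ± 0.57 (limma adjusted p = 0.65), and Abca1, with 0.44 ± 0.18 (0.70). Between the wild-type groups, Abca1 was lower in spleen than in marrow (-0.63 ± 0.12, limma adjusted p = 0.0062) and Abcg1 was higher (0.47 ± 0.13, 0.047). These are 1 of 10 in each direction, beside 1.82% and 2.07% of all genes. The Abca1 call was lost without marrow wild-type replicate 3 (0.053). The Abcg1 call was lost in 5 of the 6 fits without 1 compared library (0.078 to 0.24). Apoe was 27373 ± 3288 in wild-type spleen and 43310 ± 14672 in wild-type marrow (SD, n = 3 each), at -0.62 ± 0.19 (0.10 by limma, 0.022 without marrow replicate 1, 0.0068 by DESeq2).

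The rest of the cholesterol pathway was read from lists of non-members. Of 8 LXR and RXR genes and cofactors, none passed limma's adjusted threshold in spleen. There 4 had an unadjusted p under 0.05, beside 16.1% of all genes. In marrow 1 fell, beside 4.4% of all genes. It was Nrip1, a nuclear receptor corepressor, from 1570 ± 352 to 653 ± 63.5 (SD, n = 3 each, log2 change -1.24, limma adjusted p = 0.0047). Nr1h3, which encodes LXRα and was named after its values were seen, averaged 1793 ± 374 in wild-type and 969 ± 402 in vavCre spleen (-0.95, limma adjusted p = 0.055) and 1321 ± 81.1 and 733 ± 294 in marrow (-0.92, 0.051). Those values sit at the threshold: DESeq2 gave 0.024 in spleen and 0.030 in marrow. Nr1h2, the LXRβ gene, was 436 ± 145 and 492 ± 82.4 in spleen (0.21, limma adjusted p = 0.86). By the mean over both spleen genotypes the highest genes of that list were the corepressor gene Ncor1, at 2986 ± 492 and 2265 ± 259 (-0.39, 0.14), and Rxra, at 1142 ± 261 and 1741 ± 268 (0.62, 0.13).

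Of 16 other LXR-type targets tested, 3 rose and none fell in spleen, beside 2.98% and 2.54% of all genes. In marrow 1 rose and 4 fell, beside 3.41% and 4.4%. At an unadjusted p under 0.05 there were 10 of 16 in spleen and 9 in marrow, beside 16.1% and 20.6% of all genes. The median log2 change of the 16 was -0.36 in spleen and -0.59 in marrow, beside -0.02 and -0.04 over all genes. By limma none of the 16 was called for a difference between the tissues. For that difference 4 had an unadjusted p under 0.05, beside 6.18% of all genes. Scd2, a fatty acid desaturase, rose in both, from 616 ± 153 to 1227 ± 124 in spleen (log2 change 1.02, limma adjusted p = 0.011) and from 388 ± 98.4 to 954 ± 135 in marrow (1.32, 0.0012). The spleen call was lost without wild-type replicate 2 (0.081) or vavCre replicate 3 (0.069). The other spleen calls, the phosphodiesterase gene Smpdl3a (0.70, limma adjusted p = 0.044) and the small GTPase gene Arl4c (0.91, 0.049), lay close to the threshold and were lost without wild-type replicate 1 (0.21 and 0.16), among other libraries. In marrow the transporter gene Abcg4 (-5.68, a fitted value that depends on the pseudocount of 1), the desaturase gene Scd1 (-5.15) and the transglutaminase gene Tgm2 (-2.49) fell, with Abcg4 at 84.6 ± 57.6 in wild type and 0.698 ± 1.21 in vavCre. For Scd1 and Tgm2 the edgeR tests gave 0.10 and 0.052, and DESeq2 gave 0.071 for Scd1.

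Of 17 genes of cholesterol uptake, storage and lysosomal release, 4 rose and 3 fell in spleen and 5 rose and 4 fell in marrow. Over all genes 2.98% rose and 2.54% fell in spleen, and 3.41% rose and 4.4% fell in marrow. The scavenger receptor genes split: Msr1 rose from 1469 ± 122 to 4131 ± 210 in spleen (log2 change 1.49, limma adjusted p = 6.4e-06), Scarb1 from 1933 ± 185 to 3829 ± 371 (0.99, 0.00037), and Cd36 fell from 2755 ± 37.2 to 712 ± 127 (-1.96, 6.4e-05). The same 3 directions were called in marrow, at 1.01, 1.05 and -2.16. Lrp8, an Apoe receptor gene, fell in spleen from 199 ± 100 to 5.80 ± 0.858 (-4.76, 0.00036), and in marrow from 242 ± 139 to 46.1 ± 50.4 (-2.77, 0.025). Its marrow call was lost without any 1 of 4 of the 6 compared libraries, at adjusted p up to 0.11. Npc1, which exports cholesterol from lysosomes, rose in marrow (0.82, limma adjusted p = 0.0011) and in spleen (0.50, 0.049). The spleen call was lost without any single compared library, at adjusted p up to 0.17. By limma none of 15 genes of the SREBP pathway and sterol synthesis passed in spleen or in marrow. None of 7 lysophospholipid acyltransferases related to Lpcat3 passed either. Each list had 2 genes at an unadjusted p under 0.05 in each tissue, beside 16.1% of all genes in spleen and 20.6% in marrow. By the same mean the highest of each list were Fdft1, squalene synthase (0.21, limma adjusted p = 0.67), and the SREBP protease gene Mbtps1 (0.27, 0.75), and Lpcat2 (0.42, 0.24) and Lpcat1 (-0.46, 0.28). Of 6 genes of oxysterol making and sensing, Cyp27a1, the sterol 27-hydroxylase, rose in spleen (0.70, limma adjusted p = 0.045) and marrow (0.75, 0.026), and Gpr183, a receptor for hydroxylated oxysterols, rose in marrow from 10.8 ± 2.50 to 102 ± 46.8 (3.05, 0.026). The Cyp27a1 calls and that of Gpr183 were lost without several of the compared libraries, at adjusted p up to 0.21, 0.11 and 0.091. Of 8 other lipoprotein genes tested, only the receptor gene Apobr was called, lower in both tissues (-1.31, limma adjusted p = 0.0098; -1.79, 0.00056). Its spleen call was lost without wild-type replicate 2 (0.075) or vavCre replicate 2 (0.059).

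In spleen macrophages of Spic_KO pups Pltp rose, as the single member called. Spic encodes the transcription factor that red pulp macrophages depend on. Pltp read 258.3, 196.9 and 257 in Spic_WT and 496.1 and 803 in Spic_KO. Both knockout libraries lay above all controls, and the log2 change was 1.42 ± 0.33 (limma adjusted p = 0.016). This was 1 of 9 members, beside 1.47% of all genes called higher and 2.48% called lower. The call was lost without Spic_WT replicate 2 (limma adjusted p = 0.076), in a fit on the compared groups alone (0.11) and with the replicate number as a block (0.052). Leaving out Spic_KO replicate 2 or 1 leaves 1 knockout library, whose spread is unknown. The log2 change was then 1.07 or 1.76. The red pulp marker sum was 1.33 to 1.81% of the signal in Spic_WT and 0.653 to 0.726% in Spic_KO, and 4 of its 7 markers fell. Of 9 macrophage markers 3 fell, with sums of 1.32 to 1.86% and 0.948 to 1.03%. Of 6 B cell markers 2 rose, while their sums were 0.0304 to 0.0400% and 0.0279 to 0.0375%. Pf4 rose by 4.12 (limma adjusted p = 3.2e-05) as the single megakaryocyte marker called. The part of these markers in the Pltp value was not tested.

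The other members were not called with Spic_KO. Apoe read 8661, 4701 and 5004 against 6599 and 9751 (0.45 ± 0.30, limma adjusted p = 0.48). Apoc1 read 130.4, 112.8 and 169.3 against 142.7 and 103 (-0.16 ± 0.90, 1.0), so the groups of both genes overlapped. Abca1 read 520.2, 602.6 and 565.7 against 676.3 and 559.3 (0.13 ± 0.34, 0.93). Abcg1, Lpcat3 and Apoc2 overlapped too. Mylip read 67.27 to 167.8 against 235.8 and 217.8 and Srebf1 51.31 to 87.06 against 8.51 and 43.98; neither gene's groups overlapped, and neither passed (0.95 ± 0.45, limma adjusted p = 0.27; -1.71 ± 0.69, 0.18). From the wider lists Lpl, the lipoprotein lipase that Apoc1 inhibits, rose (1.41, limma adjusted p = 0.0032), as did Cd36 (2.40, 0.0018) and Plin2, which coats lipid droplets (1.36, 0.026). Cd36 was called higher here and lower with vavCre. In a fit on the compared groups alone the calls of Lpl, Cd36 and Plin2 were lost (limma adjusted p = 0.054, 0.064 and 0.098). Without Spic_KO replicate 2, which leaves 1 knockout library, their log2 changes were 1.17, 2.02 and 1.06. Fdft1 fell (-1.85, limma adjusted p = 0.011) as the sole call among the 15 sterol synthesis genes, whose median was -1.03 beside 0.00 over all genes. The Fdft1 call was lost on the compared groups alone (limma adjusted p = 0.0625). Its log2 change was -1.52 without Spic_KO replicate 2.

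In adult spleen macrophages none of 9 members was called between RPM_TAM_CreERT2 and RPM_TAM_WT, beside 0.144% of all genes, and edgeR and DESeq2 called none. At an unadjusted p under 0.05 there were 3 of 9, beside 7.47% of all genes. Apoc1 read 22.05 and 17.36 in wild type and 15.9, 2.22, 8.47 and 0 in the CreERT2 libraries, at most 14 reads each, below both controls (-2.11 ± 0.86, limma adjusted p = 0.58). Mylip read 182.9 and 155.2 against 61.33, 81.99, 127.9 and 52.65, also without overlap (-1.13 ± 0.43, limma adjusted p = 0.54). Pltp read 143.7 and 230.8 against 255.6, 356.8, 241.8 and 308.2, above both controls (0.65 ± 0.31, limma adjusted p = 0.66). Apoe read 930.9 and 2008 against 1572, 1310, 2132 and 2159, Abca1 280.9 and 517.3 against 749.6, 281.4, 445 and 467.4, and both overlapped. Erythroid markers took 7.51 to 11.05% of the signal in the wild-type and 12.7 to 20.7% in the CreERT2 libraries. Of the 10 markers 2 rose and none fell, and the median log2 change was -0.28. Their part in these values was not tested. Of the 87 genes of the wider lists tested in adults, limma called none, and 13 had an unadjusted p under 0.05.

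**Figure D4:**
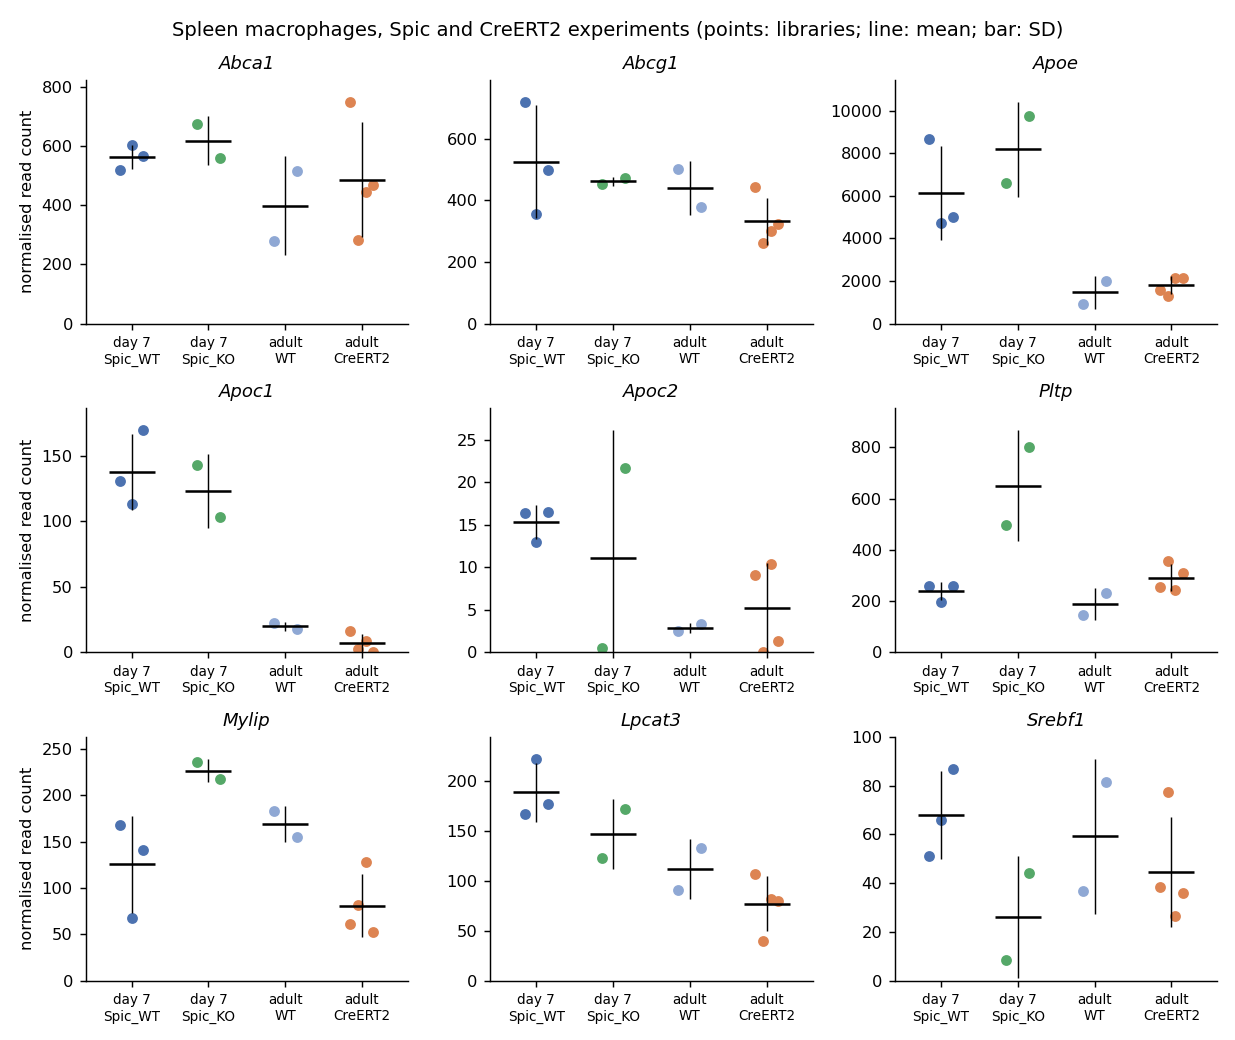
Normalised read count (linear axis from 0) of 9 members in each library of the Spic and CreERT2 experiments; points are libraries, horizontal lines group means and vertical bars SDs, n = 3, 2, 2 and 4 from left to right. Pltp stands highest in the Spic_KO libraries, and Apoe and Apoc1 are lower in both adult groups than in both day-7 groups.

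Across the second table, Apoe and Apoc1 were lower in all 6 adult libraries than in all 5 day-7 libraries, at 930.9 to 2159 against 4701 to 9751 and 0 to 22.05 against 103 to 169.3. Age there goes with experiment and genotype, which cannot be told apart, and no test was made. Ch25h was listed at 0 in 10 of the 11 libraries.

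The pattern of levels over libraries was compared by Pearson's r of log2(value + 1) within each table. It is a description over libraries that share genotype, tissue or age groups. Over the 12 libraries of the first table, Apoe followed Pltp (0.93) and Abca1 (0.86) and ran opposite to Apoc1 (-0.86). Over the 11 libraries of the second, Apoe and Apoc1 ran together (0.73). That r spans both ages, and both genes were lower in every adult library than in every day-7 library. No r was taken within an age. Among 10495 genes whose mean reached 20 in the first table, those most like Abca1 included Mtss1, Ehd4, Pf4 and C3ar1 (0.97 to 0.98), and those most like Apoe were Lilrb4, Sdc4, Pea15a, Ninj1 and Lyz2 (0.94 to 0.97). In the second table, among 7690 genes, Nlrc4 (0.97), Kctd10, Etfrf1, Trappc6b and Trappc1 were most like Abca1 and Hexa, Calm2, Ctsa, Timm13 and Fcgr3 (0.95 to 0.97) most like Apoe. No gene was in the lists of both tables.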

How the data were processed

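Libraries were made from oligo-dT-primed RNA of 1000 sorted cells, with PCR amplification and tagmentation, per the labels' protocols. The submitters' processing notes list STAR, edgeR and GRCm38 without version or role. The authors deposited a normalised signal, taken here as read counts divided by 1 factor for each library. No header names that unit; undoing the factor returned whole reads (within 0.1 read, for values of 500 reads or fewer) for 97.7 to 100% of values of the vavCre table and 96.6 to 100% of the other. Whether strand was used in counting is not given in the sources used here, so reads of overlapping genes cannot be assigned. No column was left unused (0).

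Groups came from the labels. Here limma 3.58.1 (R 4.3.3; intensity trend, robust) was fitted to log2(value + 1) over all libraries of a table, with 1 mean per group and Benjamini-Hochberg adjustment over all genes tested; a call is an adjusted p under 0.05, and fold changes are on that log2 scale. The main result stayed on values; edgeR 4.0.16 and DESeq2 1.42.0 were run on the recovered reads as alternatives (edgeR with TMM called 887 genes in spleen and 1023 in marrow), beside other filters (none; at least 10), pseudocounts (0.1; 5), a fit on the compared groups only, the replicate block and the omission of each compared library. Scripts were tested on simulated data. Ratios were tested with exact permutations (scipy 1.17.1). Coordinates are from GENCODE (GRCm38), which matched 22214 and 25587 gene identifiers. Members, lists and tests were chosen with earlier results of these data known. All members are named; from each wider list and comparison, the called genes with the smallest p (at most 4) or, in spleen vavCre lists with none, the 2 of highest mean; and the 5 genes of highest r with Abca1 or Apoe, predicted, ribosomal, mitochondrial, immunoglobulin, T cell receptor and Y-linked genes left out. One gene that this rule names is not reported here. Replicates differed by more than sampling noise in all pairs (chi-square per gene 10.1 to 52.3).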

Additional observations from a re-analysis of the deposited data

How the results depend on the processing

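Across the alternatives, the spleen vavCre calls of Abca1, Apoe and Apoc1 and the marrow call of Abca1 held, and the difference between tissues and the adult comparison had 0 members called in all fits run. In marrow the members called fell from 4 to 2 with the compared groups only and to 2 with a replicate block. Between the wild-type tissues they went from 2 to 1 without a filter, with the compared groups only, with a replicate block and with edgeR RLE, and to 4 with DESeq2. For Spic_KO the count went from 1 to 0 with the compared groups only and with a replicate block. The genes called in all moved by over 1.5 times in these cases. DESeq2 gave 1290 in spleen (835 in the main analysis), 952 between wild-type tissues (588), 1694 for Spic_KO (658), 93 for the difference (18) and 130 in adults (24). The compared groups only gave 584 in marrow (1182) and 425 for Spic_KO, where a replicate block gave 332 and edgeR RLE 1035 (655 higher and 380 lower, beside 245 and 413). For the difference no filter gave 11 and edgeR 31 with TMM and with RLE. For adults no filter gave 5, a pseudocount of 0.1 gave 14 and of 5 gave 9.

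Leaving out each compared library gave 1 to 3 members called in marrow, 0 to 2 between wild-type tissues and 0 to 1 for Spic_KO. All genes called ranged from 530 to 642 in spleen, 11 to 23 for the difference, 268 to 642 between wild-type tissues, 261 to 1981 for Spic_KO and 2 to 27 in adults, where a lone wild-type library is assumed to vary like the other groups. Log2 changes that turned sign did so only where no call was made. Apoc2 ranged from -0.48 to 0.21 in spleen, -3.43 to 0.49 for Spic_KO and -0.43 to 0.74 in adults, where a pseudocount of 0.1 gave -0.62. Lpcat3 ranged from -0.13 to 0.13 in spleen, -0.11 to 0.093 in marrow (edgeR TMM -0.00048) and -0.13 to 0.12 for the difference. Srebf1 ranged from -0.32 to 0.10 in spleen and -0.97 to 0.16 in adults. Mylip ranged from -0.22 to 0.11 in marrow (0.0048 and 0.0076 with edgeR TMM and RLE and 0.0076 with DESeq2) and -0.15 to 0.17 between wild-type tissues. For Spic_KO, Abca1 ranged from -0.0065 to 0.27, Abcg1 from -0.38 to 0.13 and Apoc1 from -0.39 to 0.074. In adults Abca1 ranged from -0.18 to 0.70 and Apoe from -0.19 to 0.91. In spleen Tomm40 ranged from -0.38 to 0.0083 and Nr1h2 from -0.039 to 0.45. The cause of these shifts was not tested.

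Replicate numbers share only a number: the residual correlation of same-numbered libraries was -0.03 to 0.08 over 11 pairs, and 6 correlated best with their own number. With the replicate block the members called were 3 in spleen, where the main analysis had 4. No paired analysis was possible in adults because the groups share only replicate 1. In adults Apoc1 rested on at most 48 reads in a library and Apoc2 on at most 11, and Ch25h on at most 27 in any library.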
